A study of Mus musculus with 2 samples.

Results

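Transcripts of 10 cell polarity genes were compared between 2 pools of mouse morulae, the stage at which the blastomeres compact and first acquire an outer and an inner side. The genes were chosen by name, with earlier results of these data known. They comprise 6 genes of the apical side (Pard3, Pard6b, Prkci, Prkcz, Ezr and Rac1) and 4 of the basolateral side (Scrib, Llgl1, Dlg1 and Mark2), and all 10 were found among the 12836 genes of the table. ICR embryos received an injection of double-stranded RNA directed at Nat10 (dsNat10), the gene of the enzyme that acetylates cytidines in RNA, or at GFP (dsGFP), a foreign sequence used as control. Each condition was 1 library of pooled morulae. The design text speaks of 50 injected embryos, without saying whether that number holds for each library. The differences below therefore have no replicate check, no p-value was computed, and each value describes these libraries.

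In the compacting morula the outer blastomeres form an apical domain that faces outwards, while the contact sites between cells take on a basolateral character. The apical Par complex joins the scaffolds encoded by the Pard3 and Pard6 genes to an atypical protein kinase C, and ezrin ties the apical membrane to the cortical actin. The basolateral side is held by the scaffolds Scrib and Dlg1, the Lgl proteins and the Par1 kinases (Mark genes), and the 2 sides exclude each other, in part because atypical protein kinase C phosphorylates Lgl and Mark proteins. Outer, polarised cells are the source of the trophectoderm. In mouse embryos the transcription factors Tfap2c and Tead4 are known to help bring about the apical domain.

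The sequences just upstream of 3 called members and of both annotated starts of Pard3 are shown because the results turn on these genes. Each holds 250 bases before and 50 after the annotated start, taken from RefSeq for GRCm38.p6, where 8 of the 10 members had at least 1 entry (15 entries in all). Capitals mark letters that match CATTCC, the core recognised by TEAD factors, or GCCNNNGGC, the core recognised by AP-2 factors such as Tfap2c, on either strand.

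Prkci promoter (chr3:30995521-30995820, + strand): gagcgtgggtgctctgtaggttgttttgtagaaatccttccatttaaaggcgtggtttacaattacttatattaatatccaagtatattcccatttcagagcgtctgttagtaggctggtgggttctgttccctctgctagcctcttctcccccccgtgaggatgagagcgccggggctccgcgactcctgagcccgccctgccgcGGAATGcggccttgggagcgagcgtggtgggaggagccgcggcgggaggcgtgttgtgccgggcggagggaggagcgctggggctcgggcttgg
Pard6b promoter (chr2:168080754-168081053, + strand): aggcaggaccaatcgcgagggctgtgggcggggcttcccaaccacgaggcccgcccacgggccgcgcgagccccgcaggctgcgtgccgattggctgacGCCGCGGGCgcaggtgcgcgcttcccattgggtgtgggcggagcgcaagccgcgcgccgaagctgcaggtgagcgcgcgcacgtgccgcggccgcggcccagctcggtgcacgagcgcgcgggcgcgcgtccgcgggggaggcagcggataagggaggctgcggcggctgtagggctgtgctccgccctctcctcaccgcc
Llgl1 promoter (chr11:60699450-60699749, + strand): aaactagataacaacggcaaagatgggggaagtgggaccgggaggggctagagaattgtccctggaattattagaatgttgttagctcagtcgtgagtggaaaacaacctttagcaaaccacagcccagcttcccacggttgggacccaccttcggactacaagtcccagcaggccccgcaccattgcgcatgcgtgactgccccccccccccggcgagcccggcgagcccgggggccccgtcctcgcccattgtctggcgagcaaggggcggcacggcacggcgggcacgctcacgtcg
Pard3 promoter, upstream start (chr8:127063806-127064105, + strand): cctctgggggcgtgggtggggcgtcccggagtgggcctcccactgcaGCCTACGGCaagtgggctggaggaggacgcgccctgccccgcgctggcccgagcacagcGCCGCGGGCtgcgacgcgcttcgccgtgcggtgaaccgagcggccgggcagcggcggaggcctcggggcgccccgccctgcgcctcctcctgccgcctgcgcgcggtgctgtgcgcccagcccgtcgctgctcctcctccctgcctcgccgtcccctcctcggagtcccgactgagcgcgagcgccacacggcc
Pard3 promoter, internal start (chr8:127299362-127299661, + strand): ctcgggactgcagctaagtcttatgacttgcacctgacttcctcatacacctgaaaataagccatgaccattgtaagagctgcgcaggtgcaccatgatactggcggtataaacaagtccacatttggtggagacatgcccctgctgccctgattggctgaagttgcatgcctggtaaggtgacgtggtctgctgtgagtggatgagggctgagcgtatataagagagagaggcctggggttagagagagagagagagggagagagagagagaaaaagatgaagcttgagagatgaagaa

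Among the 15 entries of the members, the TEAD letters were present in 1, that of Prkci, on the reverse strand (GGAATG), and the AP-2 letters in 4, those of Pard6b and of the first listed starts of Pard3, Prkcz and Dlg1. Over all 32851 promoters of the same length, 14.7% held the TEAD letters and 16.6% the AP-2 letters. The GC box (GGGCGG) was in 11 of the 15 entries against 35.7% of all promoters, and the CCAAT box (CCAAT) in 5 of 15 against 37.4%. Several entries belong to the same gene, and these matches are letters in a window, not sites shown to be bound.

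The libraries held 28303119 (dsNat10) and 29139232 (dsGFP) reads over all genes. The target of the injected RNA had 37 reads in dsNat10 and 886 in dsGFP, which was 23.7-fold lower (95% counting interval 17.1 to 33.9). In dsNat10 2657 genes were at 0 reads and in dsGFP 458. Of the markers of the labelled stage, 11 of 12 had reads in both libraries (Sox2 was not analysed here), and by the size rule given below 0 were higher and 4 lower (Nanog, Cdx2, Tead4 and Krt8), with a median log2 ratio of -0.73. Among all 8738 genes past a mean of 5 CPM, that rule called 15.3% lower, and their median log2 ratio was 0.01. Calls in either direction became rarer as abundance rose. They made up 54.7% of genes at 5 to 20 CPM (Cdx2) and 12.3% at 50 to 200 CPM (Tead4). Above 200 CPM, where Nanog and Krt8 lie, they made up 3.02%. The summed level of the markers was 18209 TPM in dsNat10 and 17312 TPM in dsGFP, and without Dppa5a, which gave most of it, 2359 and 3075 TPM. Of genes listed for other cells, 1 of 7 cumulus genes passed a mean of 5 CPM (summed 23.9 and 27.3 TPM). So did 2 of 8 blood and fibroblast genes (summed 75.2 and 82.6 TPM), Pecam1 at 31.1 and 16.5 TPM and Cd68 at 32.7 and 40.7 TPM. Under that limit, Hba-a1 had 82 and 192 reads and Col1a1 0 and 9. Of 7 oocyte genes 2 were in the table and went opposite ways, Zp3 with 642 reads against 106 and Gdf9, under the mean limit, with 1 against 54. Of the 2-cell genes, Tdpoz1 had 10 reads against 0. Whether any of these differences bear on the polarity genes was not tested.

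Levels were compared between genes in TPM, which divides by transcript length and sums to the same total in each library. In the control library the order of the members, from high to low, was Prkcz (31.9 TPM), Llgl1 (24.0), Ezr (19.2), Pard6b (18.1), Mark2 (12.9), Rac1 (11.1), Pard3 (5.61), Scrib (5.01), Dlg1 (3.73) and Prkci (3.04). Of the neighbours in that order, the counting intervals of Ezr and Pard6b, of Pard3 and Scrib, and of Dlg1 and Prkci overlapped. In the dsNat10 library the order was Prkcz (56.4 TPM), Rac1 (28.9), Prkci (13.4), Pard3 (13.3), Ezr (12.6), Mark2 (10.9), Llgl1 (8.57), Pard6b (7.85), Dlg1 (1.93) and Scrib (1.45). Here the neighbours from Prkci to Mark2 overlapped one by one, as did Llgl1 with Pard6b and Dlg1 with Scrib. Prkcz was the most abundant member in both libraries, Prkci stood at place 10 in dsGFP and at place 3 in dsNat10, and Llgl1 at place 2 and place 7.

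**Figure D1:**
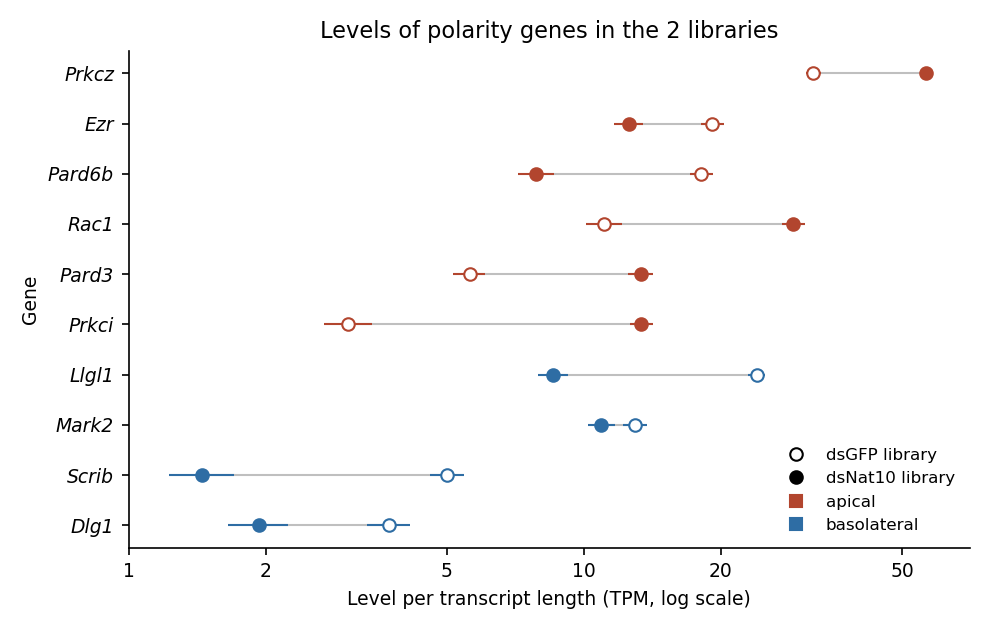
Level of each member in TPM (log scale) in the dsGFP library (open points) and the dsNat10 library (filled points), with 95% counting intervals as bars and 1 library per point. Prkci lies at 3.04 and 13.4 TPM and Llgl1 at 24.0 and 8.57 TPM, while the 2 points of Mark2 lie close together at 12.9 and 10.9 TPM.

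A gene was called higher or lower when its mean was at least 5 CPM (reads per 1000000, TMM-scaled), its log2 ratio of CPM + 1 reached 1 or -1, and the exact 95% counting interval of its ratio left out 1. All 10 members passed the mean limit. By this rule 2 members were higher in dsNat10 (Prkci and Rac1) and 3 were lower (Pard6b, Scrib and Llgl1), and 5 were not called. Of all 8738 genes that reached the same mean, 30.5% were called, 15.2% higher and 15.3% lower. The share depended on abundance, at 54.7% for a mean of 5 to 20 CPM (where Scrib and Dlg1 lie), 31.6% for 20 to 50 CPM (7 members), 12.3% for 50 to 200 CPM (Prkcz) and 3.02% above that. The 5 called members of 10 are read against this background, in which such calls were common.

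**Figure D2:**
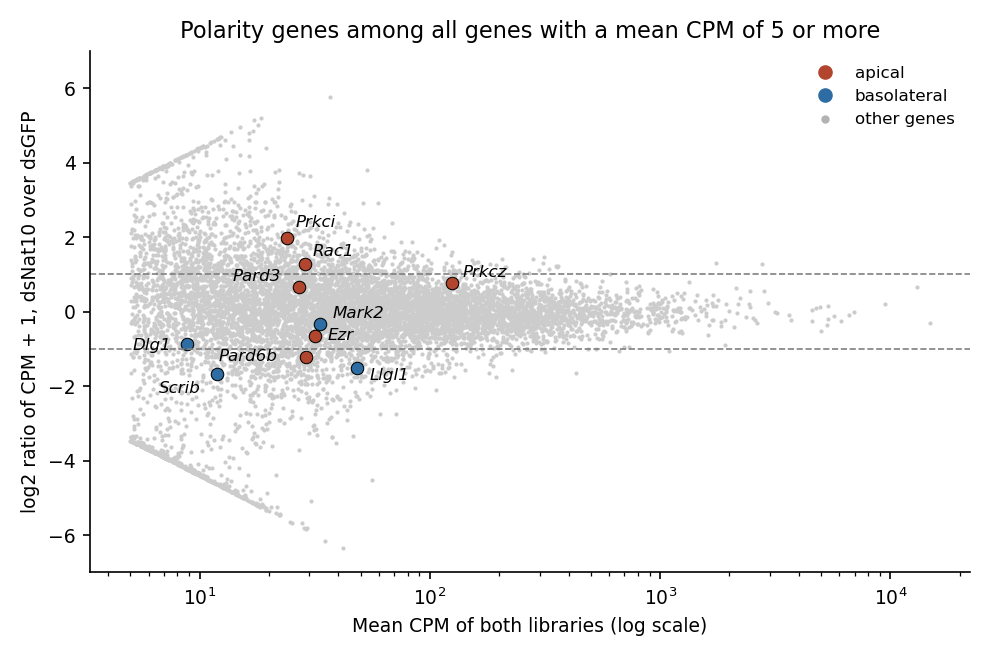
Mean CPM of both libraries (log scale) against the log2 ratio of CPM + 1, dsNat10 over dsGFP, for the 8738 genes at or above 5 CPM (grey) and the 10 members (coloured by side), with dashed lines at the limit of 1. The cloud is wide at low CPM and the members lie within it, among them Llgl1 (-1.50 at 48.1 CPM).

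The scaffold genes of the Par complex went opposite ways. Pard6b (Entrez gene 58220, GRCm38 chromosome 2, 168081004 to 168101203), which bridges the kinase to Cdc42 and is needed for the apical domain, had 488 reads in dsNat10 and 1186 in dsGFP. It was the called apical member on the low side, 2.41-fold lower (2.16 to 2.68), with a log2 ratio of -1.22. Pard3 (gene 93742, chromosome 8, 127063381 to 127612286), the scaffold that recruits the complex to the membrane, had 951 reads against 599, a ratio of 1.60 (1.45 to 1.78) and a log2 ratio of 0.66, short of the limit. Its call depends on the unit. With 1 added to each value, the deposited TPM values of 13.3 and 5.61 give a log2 ratio of 1.12. The FPKM values, also with 1 added, give one of 1.04, and both are past a limit of 1.

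The kinase genes both had ratios above 1. Prkci (gene 18759, chromosome 3, 30995742 to 31052740) encodes atypical protein kinase C iota, and Prkcz (gene 18762, chromosome 4, 155260118 to 155361428) its zeta paralogue. Prkci had 1108 reads against 261, and its ratio of 4.29 (3.74 to 4.93) was the highest of the 10. Prkcz had 4486 reads against 2669, a ratio of 1.70 (1.62 to 1.78) and a log2 ratio of 0.76, short of the limit, at an abundance where few genes were called. Per length, Prkcz remained the larger part of the kinase pair: Prkci made up 8.71% of their TPM in dsGFP and 19.2% in dsNat10.

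Of the 2 apical members outside the core complex, 1 was called. Rac1 (gene 19353, chromosome 5, 143505481 to 143528031), a small GTPase of the actin cortex, had 1169 reads against 470 and was 2.51-fold higher (2.26 to 2.80). Ezr (gene 22350, chromosome 17, 6738131 to 6782780), which encodes ezrin, had 701 reads against 1125, 1.59-fold lower (1.44 to 1.75), with a log2 ratio of -0.65 that was not called. The exons of these genes overlap others on the opposite strand in GENCODE M21, and the library protocol named does not mark strand. Daglb, opposite Rac1, had 820 reads against 509, and Sytl3, opposite Ezr, had 1 against 218 with fractional counts, so reads of each pair cannot be told apart where they overlap. In GENCODE M21 the shared exon stretch is 4 bases for Ezr and 2309 bases for Rac1, and in the RefSeq coordinates given here neither pair overlaps.

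All 4 basolateral members had ratios below 1, as did 4321 of the 8738 genes past the mean limit. Of the 4, 2 were called. Their intervals excluded 1, but so did those of the 6 apical members, and the share of all genes with such an interval was not counted. Scrib (gene 105782, chromosome 15, 76047162 to 76069784), the scaffold after which the basolateral module is named, had 148 reads against 539, which made it 3.60-fold lower (3.0 to 4.35). Llgl1 (gene 16897, chromosome 11, 60699672 to 60714186), an Lgl protein and substrate of atypical protein kinase C, had 702 reads against 2065, a 2.91-fold lower level (2.67 to 3.18). Flii, whose exons share 64 bases with those of Llgl1 on the opposite strand in GENCODE M21, had 6339 reads against 2591 and so lay on the other side, at 2.47-fold higher (2.36 to 2.59).

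Dlg1 and Mark2 were not called. Dlg1 (gene 13383, chromosome 16, 31663443 to 31873356), a scaffold with PDZ domains, had 170 reads against 336, 1.96-fold lower (1.62 to 2.37) with a log2 ratio of -0.86, but with fractional counts, which make this value uncertain. Mark2 (gene 13728, chromosome 19, 7275396 to 7341860), a Par1 kinase, had 834 reads against 1076, 1.28-fold lower (1.17 to 1.40). Scrib and Dlg1 lie among the genes with 300 to 1000 reads in dsGFP, of which 10.2% had 0 reads in dsNat10, against 3.43% the other way round. The apical members Pard3 (599 reads) and Rac1 (470) lie in the same band. Prkci (261) lies in that of 100 to 300 reads, where 31.0% had 0 reads in dsNat10, against 8.41% the other way round. These apical members had more reads in dsNat10. The part of such losses in the ratios of the members was not tested.

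**Figure D3:**
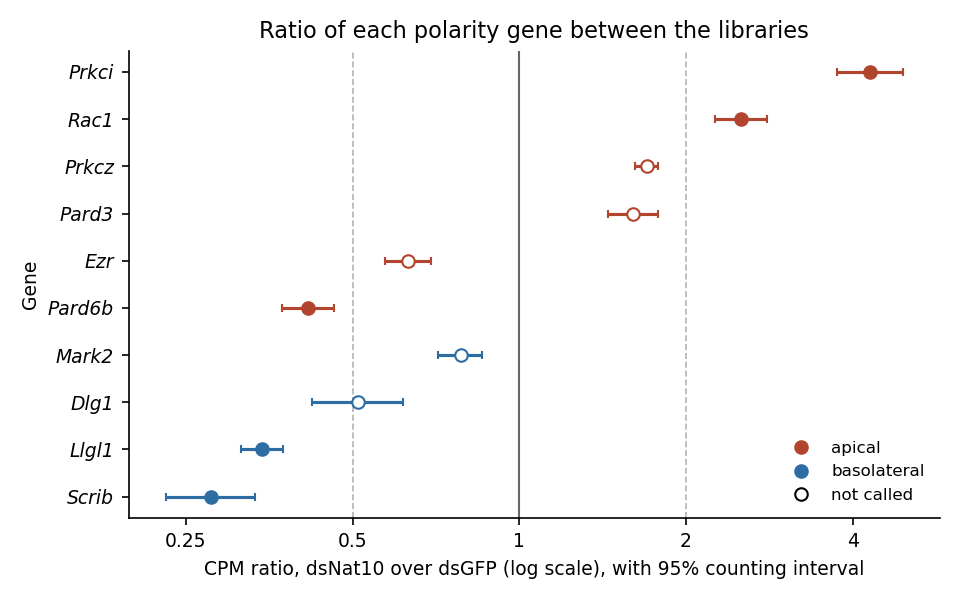
CPM ratio of each member, dsNat10 over dsGFP (log scale), with 95% counting intervals, a solid line at 1 and dashed lines at 0.5 and 2, and open points for members that were not called. Apical members spread from 0.416 (Pard6b) to 4.29 (Prkci), and the 4 basolateral members lie between 0.277 (Scrib) and 0.783 (Mark2).

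Set side by side, the apical members had a median log2 ratio of 0.71 and the basolateral members one of -1.18, against 0.01 for all 8738 genes past the mean limit. Of the apical genes 4 of 6 had a ratio above 1, and of the basolateral genes 0 of 4, against 4417 of the 8738 genes. The summed TPM of the 6 apical members was 132 in dsNat10 and 88.9 in dsGFP, and that of the 4 basolateral members 22.9 and 45.7, so that the apical to basolateral ratio of summed TPM was 5.79 and 1.95. Prkcz gave much of the apical sum. Without it the ratio was 3.32 in dsNat10 and 1.25 in dsGFP, with apical sums of 76.0 and 57.0 TPM. Of the other apical members, Rac1 differed most in TPM (28.9 in dsNat10, 11.1 in dsGFP). Prkci and Pard3 were also higher in dsNat10, and Pard6b and Ezr lower. Of the basolateral members, Llgl1 differed most (8.57 in dsNat10, 24.0 in dsGFP). In the wider lists taken up below, summed TPM in dsNat10 and dsGFP stood closer together. It was 784 and 861 for the Par complex and its partners, 274 and 302 for the Crumbs complex, and 2097 and 2088 for ERM proteins and the apical cortex. For Scribble, Dlg and Lgl genes it was 88.45 and 92.27, and for Par1, Lkb1 and 14-3-3 genes 4571 and 4858. Apart from the Scribble list, a single abundant gene gave a large part of each sum. In dsNat10 and dsGFP, Cdc42 stood at 317 and 324 TPM, Crb3 at 209 and 246, Myl6 at 1502 and 1362, and Sfn at 1850 and 2366. The sums over the members describe a handful of genes in 2 libraries, and fewer cells of a kind and less RNA per cell cannot be told apart in pooled embryos.

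Most members have paralogues, so the share of each within its family was taken per length in 6 families. Whether a paralogue can stand in for a member was not tested. Pard6b made up 37.9% of Pard6 TPM in dsGFP and 24.97% in dsNat10, while Pard6a, with 500 reads against 602, made up 57.3% and 75.03%. The third member, Pard6g, had 0 reads against 139 and lies under the mean limit. Among Lgl genes, Llgl1 made up 71.1% in dsGFP and 48.9% in dsNat10, since Llgl2 hardly differed (584 reads against 663, 1.12-fold lower, 1.004 to 1.26). Among ERM genes, Ezr made up 34.0% and 18.8%, and radixin (Rdx), with 3405 reads against 1874 and a ratio of 1.84 (1.73 to 1.94), 40.7% and 65.9%.

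Beside Dlg1 and Mark2 stood paralogues with ratios above 1. Dlg1 made up 43.3% of Dlg TPM in dsGFP and 22.3% in dsNat10, beside Dlg3 with 410 reads against 254 (ratio 1.63, 1.39 to 1.91). Mark2 made up 49.8% and 27.1% of the Par1 kinases, beside Mark3, with 1352 reads against 616 and called 2.22-fold higher (2.01 to 2.44), and Mark1, with 532 against 164 and called 3.28-fold higher (2.75 to 3.93). Mark4 had 0 reads against 63 and Dlg5 0 against 131, both under the mean limit.

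The difference between a member and its paralogue was measured as the ratio of their 2 ratios, with a conditional 95% interval, for 8 pairs. The pairs were chosen after their values were seen, and the paralogues Pard6g, Dlg5 and Mark4, at 0 reads in dsNat10 and under the mean limit, are not among them. In 7 of the 8 the interval excluded 1. Of all pairs of genes at a mean of at least 5 CPM, 89.8% had an interval that excluded 1, as did 89.6% of pairs with both genes at 20 to 50 CPM, so this count lies near the background. The ratio of Prkci was 2.53 times that of Prkcz (2.19 to 2.93), and that of Pard6b was 2.02-fold below that of Pard6a (1.72 to 2.37). Llgl1 stood 2.59-fold below Llgl2 (2.25 to 2.99), Dlg1 3.19-fold below Dlg3 (2.49 to 4.09), Ezr 2.92-fold below Rdx (2.61 to 3.26), and Mark2 2.83-fold below Mark3 (2.48 to 3.24) and 4.19-fold below Mark1 (3.42 to 5.13). Ezr and moesin (Msn, 719 reads against 1061) were the pair whose interval held 1, at 1.09-fold (0.949 to 1.25). These intervals cover counting error only.

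**Figure D4:**
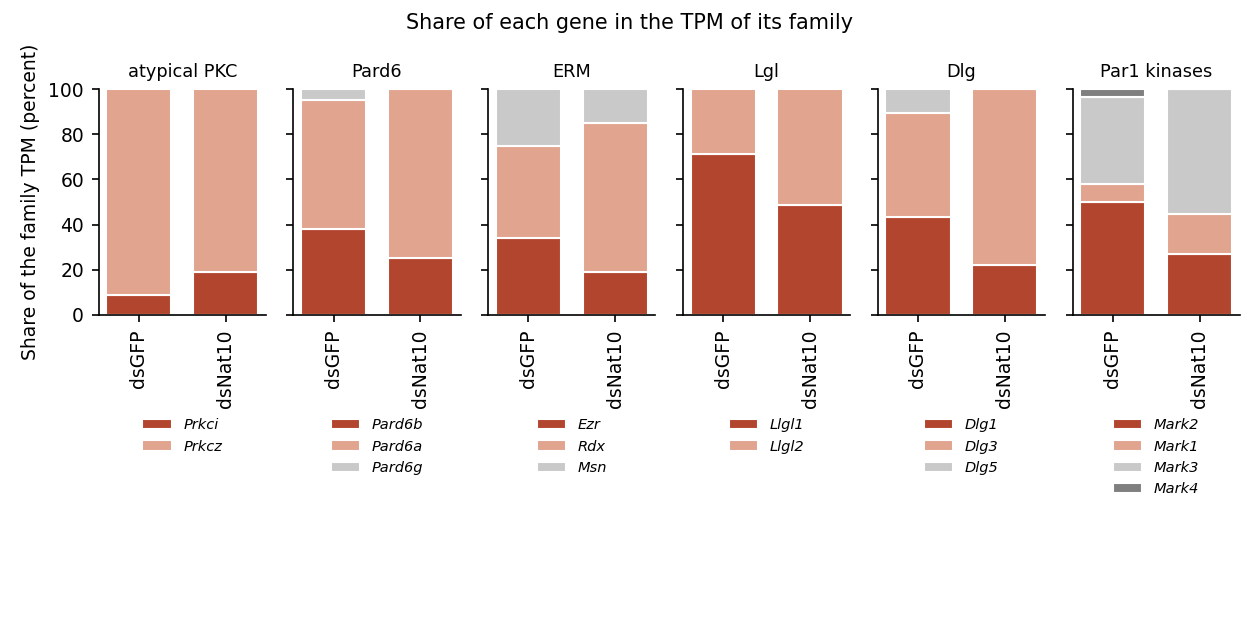
Share of each gene in the summed TPM of its family, in percent, for 6 families and 1 library per bar, with a polarity member at the base in dark red (in the kinase pair Prkci, above which Prkcz is also one). The share at the base was smaller in dsNat10 in 5 families (Llgl1 71.1% and 48.9%) and larger for Prkci (8.71% and 19.2%).

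Pard3 also differed in the length that the deposited values imply. Dividing reads by FPKM and library total gives the transcript length that went into the FPKM, which for Pard3 was 5244 bases in dsGFP and 3684 in dsNat10, a ratio of 0.703. The other 7 members with at least 2 FPKM in both libraries had length ratios between 0.967 (Mark2) and 1.02 (Prkci), and Scrib and Dlg1 were too low to be included. Of 7164 genes with such a value, 2.08% differed by 1.3-fold or more, and 1.14% were shorter in dsNat10 by that much. Coding transcripts of Pard3 in GENCODE M21 range from 307 to 5815 bases. Among them are 4214-base and 3204-base forms that begin at the internal start printed above. Others, such as forms of 3394, 3293 and 4050 bases, begin at or near the upstream start. The values per gene do not tell which transcripts were present, and implied lengths are not exact: over genes with a single GENCODE transcript their median was 0.890 of its length in dsNat10 and 0.885 in dsGFP, with 64.9% and 63.3% of genes within 20%. In the wider lists, Patj, a scaffold of the Crumbs complex (3151 against 4715 bases), and Vangl1, a planar polarity protein (2069 against 2751), were also shorter by 1.3-fold or more.

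**Figure D5:**
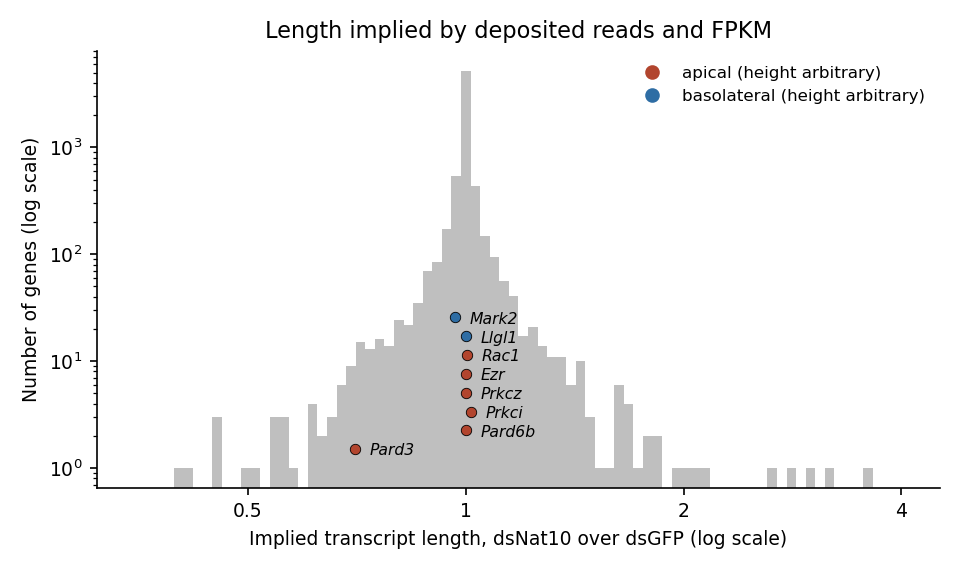
Histogram (log scales) of the implied transcript length in dsNat10 over that in dsGFP for 7164 genes, with the members as points at arbitrary height. Most genes lie near 1, as do 7 of the 8 members shown, and Pard3 lies at 0.703.

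The other genes of the pathway were taken from 5 lists of polarity genes. Where zeros are set at their bound of 3 counts, the median log2 ratio over all genes with a value was -0.20 (0.01 without bounds, over genes past the mean limit), and the medians with bounds below are read against it. Among 18 genes of the Par complex and its partners, 13 passed the mean limit, and 2 were higher and 2 lower (median log2 ratio -0.09, or -0.13 over 16 genes with bounds). The lower genes were Pard6b and Ocln, a tight junction protein, which had 503 reads against 3612 (log2 ratio -2.76). Cdc42, the GTPase that activates the complex and its most abundant partner, had 11842 reads against 12733, a ratio of 0.940 (0.916 to 0.964).

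The Crumbs complex, the other apical module, had 5 of 10 genes past the limit, 1 higher and 1 lower (median 0.24, or -0.47 over 8 genes with bounds). The transmembrane protein gene Crb2 had 474 reads against 0, at least 160-fold higher with the 0 set at 3 counts (counting interval from 129-fold). The scaffold gene Mpp5 had 0 against 474, at least 156-fold lower by the same floor (interval from 127-fold). Crb3, the abundant Crumbs gene of epithelia, had 2831 reads against 3807, 1.33-fold lower (1.27 to 1.40), and was not called.

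In the list of ERM proteins and the apical cortex, 15 of 20 genes passed, 2 higher and 4 lower (median -0.31, or -0.42 over 18 genes with bounds). Cdc42ep1, an effector of Cdc42, had 2 reads against 737, a 365-fold lower level with a counting interval of 101 to 3017. Slk, a kinase that phosphorylates ERM proteins, had 527 reads against 26 and was 20.5-fold higher (13.8 to 31.6), and the kinase gene Prkd2 had 401 against 0, at least 135-fold higher against 3 counts (interval from 109-fold). The most abundant gene of the list, Myl6, a myosin light chain, had 14300 against 13642, a ratio of 1.06 (1.03 to 1.08).

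The transcription factors known to help bring about the apical domain differed from each other. Tead4 had 1338 reads against 4153 (log2 ratio -1.60). Tfap2c had 7195 against 5732, a ratio of 1.27 (1.22 to 1.31) that was not called.

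On the basolateral side, 10 of 19 genes in the list of Scribble, Dlg and Lgl genes passed, 1 higher and 2 lower (median -0.12, or -0.50 over 15 genes with bounds). The higher gene, Stxbp5, encodes tomosyn, a relative of Lgl proteins that binds SNAREs, and had 517 reads against 14, 37.3-fold higher (22.0 to 68.7). Vangl1, the most abundant of the list per length over both libraries together, had 1007 reads against 521. Its ratio of 1.95 (1.75 to 2.17) was not called in CPM. It stood at 25.2 TPM in dsNat10 but at 9.30 in dsGFP, below Llgl1, Arhgef7, Git1 and Llgl2. In the list of Par1 kinases, the Lkb1 complex and 14-3-3 proteins, 17 of 18 passed, 3 higher and 2 lower (median 0.03, or 0.01 over 18 genes with bounds). Stradb, a pseudokinase partner of Lkb1, had 2008 reads against 247 and was 8.21-fold higher (7.19 to 9.41). Prkaa2, a catalytic subunit of AMP-activated kinase, had 0 reads against 602, at least 199-fold lower against 3 counts (interval from 161-fold). Sfn, the epithelial 14-3-3 protein and most abundant gene of the list, had 51120 reads against 68756, 1.33-fold lower (1.32 to 1.35).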

How the data were processed

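RNA of the labelled morula pools was read by the SMART-seq2 protocol, per the labels' protocols, which amplifies cDNA by PCR. The submitters' processing notes name Trim Galore for trimming, HISAT for mapping to GRCm38 and HTSeq for counting, without versions or annotation. The estimated counts deposited by the authors carry no normalization, and 23.2% of genes hold fractional values of unstated origin. The authors also deposited TPM and FPKM values. No sample column was left unused (0 unused).

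Here estimated counts were rounded and scaled over all genes by TMM (edgeR 4.0.16, R 4.3.3). The log2 ratio carries a pseudocount of 1 CPM (1 TPM or 1 FPKM where those units were used) and understates low genes, while printed folds have none. Intervals are exact 95% Clopper-Pearson intervals of the count ratio. For a gene at 0 the fold is a bound against 3 counts in that library (0.105 CPM in dsNat10, 0.104 CPM in dsGFP). Both cover counting error only, as PCR copies lacking molecular identifiers are not separate molecules. With 1 library per group no p-value was computed. Coordinates are from RefSeq GRCm38.p6 (10 of 10 members). For all pairs of genes the interval of the ratio of ratios was Woolf's, with 0.5 added to each count.

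The members and lists were chosen with earlier results of these data known. Named were all members, Nat10, and from each list the 3 largest log2 ratios at a mean of 5 CPM or more plus the most abundant gene by TPM. Paralogues, single marker genes, Tead4, Tfap2c, overlapping genes and genes of the length comparison were added after their values were seen. A list fixed with the others is not reported here.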

Additional observations from a re-analysis of the deposited data

How the results depend on the processing

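Plain library totals, DESeq2 1.42.0 size factors, a pseudocount of 0.1 or 5 CPM, no mean limit or one of 20 CPM, a fold limit of 1.5, and the deposited TPM or FPKM in place of CPM were tried. Under the 6 of these settings that alter a ratio, none of the 60 values of the 10 members changed sign, and 42 lay inside the member's counting interval. The other 18 came from TPM, FPKM and the pseudocount of 5 CPM. At a fold limit of 1.5, 4 of the 10 members were called higher and 5 lower. Of all 8738 genes past the mean limit, 2196 were then called higher and 2081 lower. With 1 added to each TPM or FPKM value, the apical median was 0.96 in TPM and 0.90 in FPKM, and the basolateral median -0.99 and -0.91. The basolateral median was -0.91 with a pseudocount of 5 CPM, and -0.92 over Llgl1 and Mark2, which alone of the 4 reach a mean of 20 CPM. Without any added value, the ratios in TPM and in CPM were 0.289 and 0.277 for Scrib and 0.357 and 0.343 for Llgl1. They were 0.517 and 0.511 for Dlg1, and 0.843 and 0.783 for Mark2. The counts of all genes called were 1681 higher and 3252 lower with no mean limit, and 524 and 502 at a mean of 20 CPM. No replicate could be left out, since there was 1 library per group. No paired analysis was possible because each group had 1 library. Depth limits Scrib and Dlg1 most, with 148 and 170 reads in dsNat10.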
